A study of Mus musculus with 18 samples.

Results

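CpG sites with low DNA methylation in gonadal adipose tissue and high methylation in both hypothalamus and liver were collected from a mouse series on bisphenol A (BPA), a plasticizer monomer. Sites of chromosomes 1 to 19 were eligible when at least 20 reads covered them in every pool of all 3 tissues, which left 1275720 CpGs, called the common set below. A site was kept when at most 35% of its adipose reads, and at least 65% of its hypothalamus and of its liver reads, were methylated over both pools of a tissue together. This gave 2102 CpGs, 0.165% of the common set. The same cut-offs gave 5748 CpGs low only in liver (0.451%) and 1710 low only in hypothalamus (0.134%). The adipose-low sites were therefore chosen by these levels, and their levels and the gaps between tissues are a description without a test.

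The samples came from male C57BL/6 offspring at 3 weeks of age. In 3 of the 6 groups (adipose, hypothalamus, liver) the dams had received a daily gavage of BPA, 5 mg per kg body weight, dissolved in corn oil, from day 1 to day 20 after conception. In the matching control groups they had received corn oil alone. Each group had 3 samples, 18 in all, the control offspring came from 3 litters and the BPA offspring from 4. The deposited tables hold 1 pool per group, so every level below is a pooled value with no error between animals, and its precision is set by the reads counted. Pool 0 was read as control and pool 1 as BPA, after the order of the names in a label. No label states that numbering, and if it were reversed every direction between pools would turn.

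Methylation of the cytosine in a CpG is copied at cell division and is found at most CpGs outside CpG-dense promoters. Enhancers and promoters that a cell type uses are often less methylated in that cell type, so a site that is low in 1 tissue often lies in regulatory DNA used by some of its cells. Gonadal fat holds adipocytes, their progenitors, endothelium, mural cells of the vessel wall, leukocytes and a mesothelial cover. In a bulk sample an intermediate level can be fewer unmethylated cells or fewer unmethylated copies per cell, and these cannot be told apart here. Reduced representation bisulfite sequencing (RRBS) reads CpGs near the cut sites of the enzyme MspI, so it favours CpG-rich fragments.

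Sequence was available for promoter windows from 250 bases before to 50 bases after each start in RefSeq on GRCm38.p6. All 123092 common-set CpGs within these windows read CG in the sequence, which ties the coordinates to that build. Of 32851 windows, 23 at 22 genes held an adipose-low CpG. The sequences of 4 are printed because at least 2 such sites lie in each and because they include a muscle, an endothelial and a noncoding gene. The windows of Phactr1, Gm15813, Gm4262, Gm34280 and Gm29909 also hold 2 each and are not printed. The printed sequences run 5′ to 3′ on the strand of the gene, with the adipose-low CpGs in capitals. Des, Tie1 and Fes are shown for the 250 bases before the start, and the noncoding Gm36301 for the whole window. Their places are chr1:75360042-75360291 on the plus strand for Des, chr4:118489850-118490099 on the minus strand for Tie1, chr7:80387947-80388196 on the minus strand for Fes, and chr6:115519452-115519751 on the minus strand for Gm36301.
Des: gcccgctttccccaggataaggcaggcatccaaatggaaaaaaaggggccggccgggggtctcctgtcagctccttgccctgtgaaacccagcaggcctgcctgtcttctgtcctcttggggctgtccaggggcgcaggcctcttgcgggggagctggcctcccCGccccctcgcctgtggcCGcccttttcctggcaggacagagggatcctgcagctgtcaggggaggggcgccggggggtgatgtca
Tie1: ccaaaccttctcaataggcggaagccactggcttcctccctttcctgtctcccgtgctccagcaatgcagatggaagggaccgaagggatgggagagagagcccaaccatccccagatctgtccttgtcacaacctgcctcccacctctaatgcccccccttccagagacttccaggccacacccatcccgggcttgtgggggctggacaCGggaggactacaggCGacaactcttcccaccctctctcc
Fes: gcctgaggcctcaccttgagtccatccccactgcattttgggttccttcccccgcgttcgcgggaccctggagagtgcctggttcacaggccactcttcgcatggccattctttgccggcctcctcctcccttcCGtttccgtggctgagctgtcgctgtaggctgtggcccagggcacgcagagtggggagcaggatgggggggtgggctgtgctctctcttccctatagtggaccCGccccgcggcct
Gm36301: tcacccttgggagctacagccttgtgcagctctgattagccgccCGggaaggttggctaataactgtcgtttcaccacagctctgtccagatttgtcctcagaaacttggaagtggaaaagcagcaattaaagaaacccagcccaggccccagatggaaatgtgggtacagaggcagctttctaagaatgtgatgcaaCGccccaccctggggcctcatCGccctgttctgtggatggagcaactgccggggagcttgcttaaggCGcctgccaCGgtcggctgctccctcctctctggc

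Des encodes desmin, the intermediate filament of muscle cells. Its 2 adipose-low CpGs lie 86 and 68 bases before the start. At the first position the adipose pools held 28.6% methylated reads (control, 119 reads) and 24.8% (BPA, 113 reads). The hypothalamus pools stood at 89.2% and 82.9% there and the liver pools at 94.7% and 91.4%. The CpG 78 bases before the start, between them, had 23.2% in adipose but 67.0% and 58.2% in hypothalamus and liver, so it missed the liver cut-off. At 117 and 104 bases before the start the tissues lay closer together, with 13.1% and 10.2% in adipose against 37.1% and 33.0% in hypothalamus and 23.5% and 21.8% in liver. The window holds 10 common-set CpGs in all, and the 2 nearest to the start had at most 3.07% in adipose and 26.0% in hypothalamus.

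Tie1 encodes an endothelial receptor tyrosine kinase. The CpGs 25 and 40 bases before its start had adipose levels of 33.6% and 34.6%, close under the cut-off. Hypothalamus had 74.7% and 73.4% and liver 73.8% and 68.4% at these sites. The CpG 61 bases before the start, within a CCGG, had 43.6%, 71.5% and 70.7% in the same order of tissues. Fes encodes a cytoplasmic tyrosine kinase of myeloid cells and endothelium. Of 13 common-set CpGs within 250 bases before its start, the CpGs at 13 and 116 bases were kept, with 17.9% and 18.8% in adipose against 73.4% and 88.0% in hypothalamus and 84.3% and 76.3% in liver. The CpGs at 72, 96 and 110 bases had between 7.41% and 11.5% in adipose, 55.9% to 63.3% in hypothalamus and 14.8% to 26.4% in liver, so liver joined adipose there. At Gm36301, 5 of 8 CpGs were adipose-low with 15.7% to 29.9%, and the other 3 had 10.7% to 18.1% in adipose and 61.0% to 67.2% in the other tissues.

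Short motifs were counted on both strands as a description, in the 250 bases of each window before the start. The shares over all windows refer to the same 250 bases. The ETS core GGAAG occurred 6 times at Tie1, 3 at Fes, 2 at Gm36301 and 0 at Des, and 64.1% of all windows hold at least 1, with a median of 1. The E-box CANNTG occurred 2 times at Des, 1 at Tie1, 0 at Fes and 2 at Gm36301, against 66.2% of windows with a match. The MspI site CCGG, which sets where RRBS reads begin, occurred 3, 1, 1 and 2 times in Des, Tie1, Fes and Gm36301, and in 47.1% of windows. The CArG box, the site of serum response factor in muscle promoters, had no match in these 4 windows and 1 in 1.47% of all windows.

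Of 96 microRNA hairpins with a common-set CpG, only that of Mir26a-1 held adipose-low sites. MiR-26a is a broadly expressed microRNA, and its gene lies within Ctdspl, a phosphatase gene, at chr9:119031796-119031885 on the plus strand. The RefSeq hairpin is printed with its 2 adipose-low CpGs in capitals, and the mature strand with its seed (bases 2 to 8) in capitals.
Mir26a-1 hairpin: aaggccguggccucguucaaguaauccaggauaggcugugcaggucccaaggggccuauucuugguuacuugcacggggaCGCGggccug
miR-26a-5p: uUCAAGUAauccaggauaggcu

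The CpGs of the hairpin at 119031876 and 119031878 had adipose levels of 27.1% and 27.8%, against 70.2% and 74.1% in hypothalamus and 77.8% and 78.6% in liver. Members of the same set at 119031783 and 119031888 flank the hairpin, with 34.2% and 25.1% in adipose. At 119031876 the control pool of adipose had 34.9% of 258 reads methylated and the BPA pool 21.3% of 342. At 119031878 these were 35% of 257 and 22.2% of 333. Neither of these Ctdspl sites passed the test between pools described below (Benjamini-Hochberg adjusted Fisher exact p = 0.0506 and 0.0835). Inside the hairpin, 3 further CpGs missed a cut-off, with 24.8% to 36.4% in adipose and 56.5% to 76.2% in hypothalamus.

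Across the 2102 CpGs, the median adipose level was 29.4% in the control pool (lowest 1.39%, highest 60%) and 28.3% in the BPA pool (3.37% to 52.4%). In hypothalamus the medians were 75.8% (53.6% to 100%) and 75.3% (54.0% to 100%), and in liver 74.1% (54.8% to 98.8%) and 72.7% (45.5% to 100%). A single pool can lie past a cut-off, because the rule set it on both pools together. Over the whole common set the medians in the 3 control pools were 59.4%, 66.2% and 63.0% in the order adipose, hypothalamus and liver. The median number of reads behind a site was 218 and 245 for the adipose pools, 110.5 and 109.5 for hypothalamus, and 176.5 and 167 for liver. At these depths an exact 95% Clopper-Pearson interval around 50% reaches 6.83 and 6.43 percentage points to each side for the adipose pools, 9.68 and 9.73 for hypothalamus, and 7.62 and 7.82 for liver. All intervals cover counting error only, since each group is 1 pool without values per animal. Reads copied by PCR were not told apart by molecular identifiers, so the intervals may be too narrow even for counting error.

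**Figure D1:**
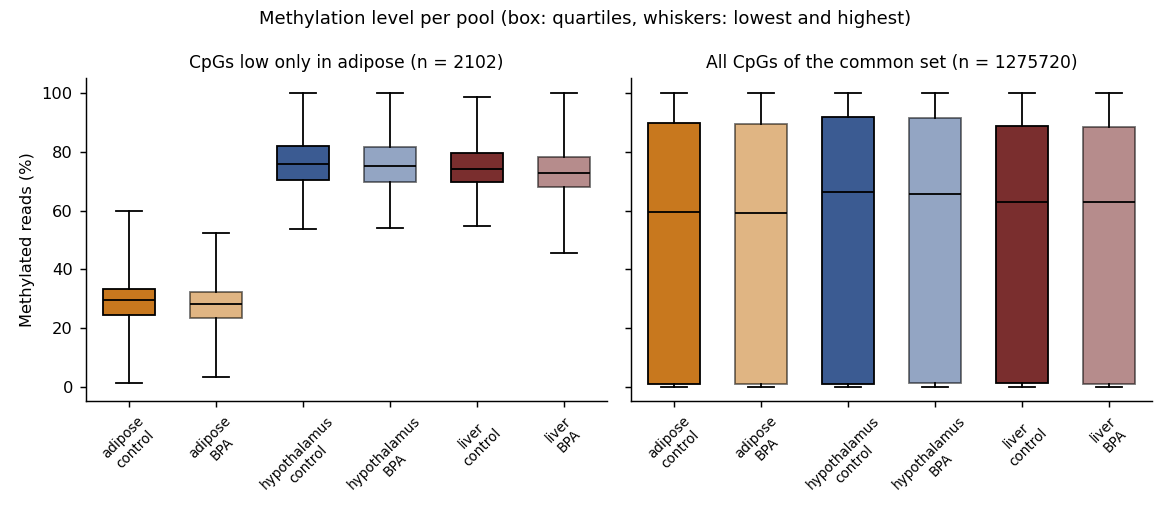
Methylation level (percent methylated reads, vertical axis) in each of the 6 pools for the 2102 CpGs low only in adipose and for all 1275720 CpGs of the common set. Boxes span the quartiles with a line at the median, and whiskers reach the lowest and highest site. The chosen sites sit at medians of 29.4% and 28.3% in the adipose pools and above 72% in the other 4, as the rule requires.

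Most of these CpGs were partly methylated in adipose. Of the 2102, 1533 (72.9%) had an adipose level over 25%, 960 over 30%, and 22 at most 10%. In the other tissues 182 had at least 80% in both and 15 at least 90% in both. Hypothalamus and liver lay within 10 percentage points of each other at 1540 sites (73.3%), hypothalamus was at least 10 points higher at 373 and liver at 189. The gap between adipose and the lower of the other tissues had a median of 42.7 points, from 30.4 to 79.1, and was at least 60 points at 65 sites.

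The gap was widest at position 32553036 of chromosome 9, more than 5 kb from any gene of the table. There 5.26% of 57 adipose reads were methylated (95% interval 1.10% to 14.6%), against 84.3% of 249 in hypothalamus (79.2% to 88.6%) and 86.6% of 387 in liver (82.8% to 89.8%). The neighbouring CpG at 32553004 had 17.9%, 87.9% and 88.8%. Both had few adipose reads, 23 and 34 in the control and BPA pools at the former. Etl4 at 20445395 on chromosome 2 had 11.2% in adipose (7.51% to 15.9%), 86.7% in hypothalamus (73.2% to 94.9%) and 89.4% in liver (76.9% to 96.5%). Ephb1, a receptor for membrane-bound ephrins, had 22.1% at 102086303 on chromosome 9 (17.2% to 27.7%), against 97.3% (90.6% to 99.7%) and 96.2% (89.4% to 99.2%). A site on chromosome 16, at 91484411 within 5 kb of the interferon receptor gene Ifnar1, had 12.9% (5.74% to 23.9%), 85.7% and 85.0%.

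At the edge of the rule the values ran on without a break. The 2 sites nearest inside the adipose cut-off both had 35%, and the nearest outside had 35.006% on chromosome 4 and 35.012% on chromosome 5. Around the hypothalamus cut-off the nearest sites inside had 65% and those outside 64.999% and 64.973%. Around the liver cut-off they had 65.004% and 65.008% inside, and 64.996% and 64.980% outside. Sites this close to a cut-off are separated by less than counting error.

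Choosing sites on the control pools alone and reading them in the BPA pools uses animals that took no part in the choice. The same cut-offs on control pools gave 2387 CpGs with medians of 29.1%, 75.3% and 73.9% in adipose, hypothalamus and liver. In the BPA pools these had medians of 29.6%, 74.1% and 72.1%. Adipose was again the lowest tissue at 2376 of them (99.5%), and 1122 (47.0%) again met all cut-offs. In the reverse direction 2266 CpGs were chosen on BPA pools, adipose was lowest at 2261 (99.8%) in the control pools, where their medians were 31.7%, 75.6% and 74.4%, and the same 1122 (49.5%) met all cut-offs. The pattern across tissues was thus present in separate pools, while about as many sites missed a cut-off in the other pools as met all of them. Treatment also differs between these pools, and with 1 pool per group no test was made.

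Neighbouring CpGs on the same fragment share reads, so the sites were chained where they lay at most 200 bp apart. This gave 1444 places, of which 1055 held 1 site, 239 held 2 and 150 held 3 or more. Of the members, 49.8% lay in places with at least 2, against 71.7% of the CpGs low only in liver and 66.8% of those low only in hypothalamus. The 150 places held 569 members among 767 common-set CpGs, and at 54 places every common-set CpG of the span was a member. The median span was 128 bp and the longest 376 bp. Within these places the adipose level varied by a median of 8.80 points between the lowest and highest member, and by 25.4 points at most. In gene bodies lay 88 of the 150.

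The place with the most members, 10 of 11 CpGs at chr5:127691711-127691954, lies in Glt1d1, which encodes a protein with a glycosyltransferase domain. Summed over the 10, 31.1% of 1377 adipose reads of the control pool were methylated and 28.2% of 1423 in the BPA pool. In hypothalamus it was 75.5% and 78.2%, and in liver 77.6% and 68.0%. Its 10 sites ranged from 22.6% to 32.8% in adipose, and 4 other CpGs within 300 bp had 41.4% to 66.8%. The second place, chr6:84266818-84267193, lies 55.8 kb from Dysf, the nearest protein-coding gene, which encodes the muscle membrane repair protein dysferlin. Its 8 members among 12 CpGs had 26.3% and 22.9% in adipose against 85.4% and 84.3% in hypothalamus and 76.3% and 74.1% in liver. The third, with 7 members among 9 CpGs at chr5:33505873-33506032, lies 71.8 kb from the homeobox gene Nkx1-1 and had 18.6% and 17.6% in adipose against 80.1% and 79.4% in hypothalamus and 72.6% and 71.7% in liver.

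Ephb1 held 7 of 8 CpGs at chr9:102086202-102086370, with 21.9% and 23.8% in adipose against 86.0% and 88.4% in hypothalamus and 75.5% and 73.4% in liver. Of the 8 places with 6 members, that with the lowest adipose level, chr18:74966992-74967120, had 19.2% and 17.2% in adipose, and all of its 6 CpGs were members. It lies 5.73 kb from Lipg, which encodes endothelial lipase. Hypothalamus had 82.6% and 81.5% there, and liver 72.2% and 71.6%. At chr12:102540212-102540385, 14.6 kb from Chga, which encodes chromogranin A, all 6 CpGs were members as well, with 20.2% and 20.7% in adipose against 78.7% and 77.2% in hypothalamus.

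**Figure D2:**
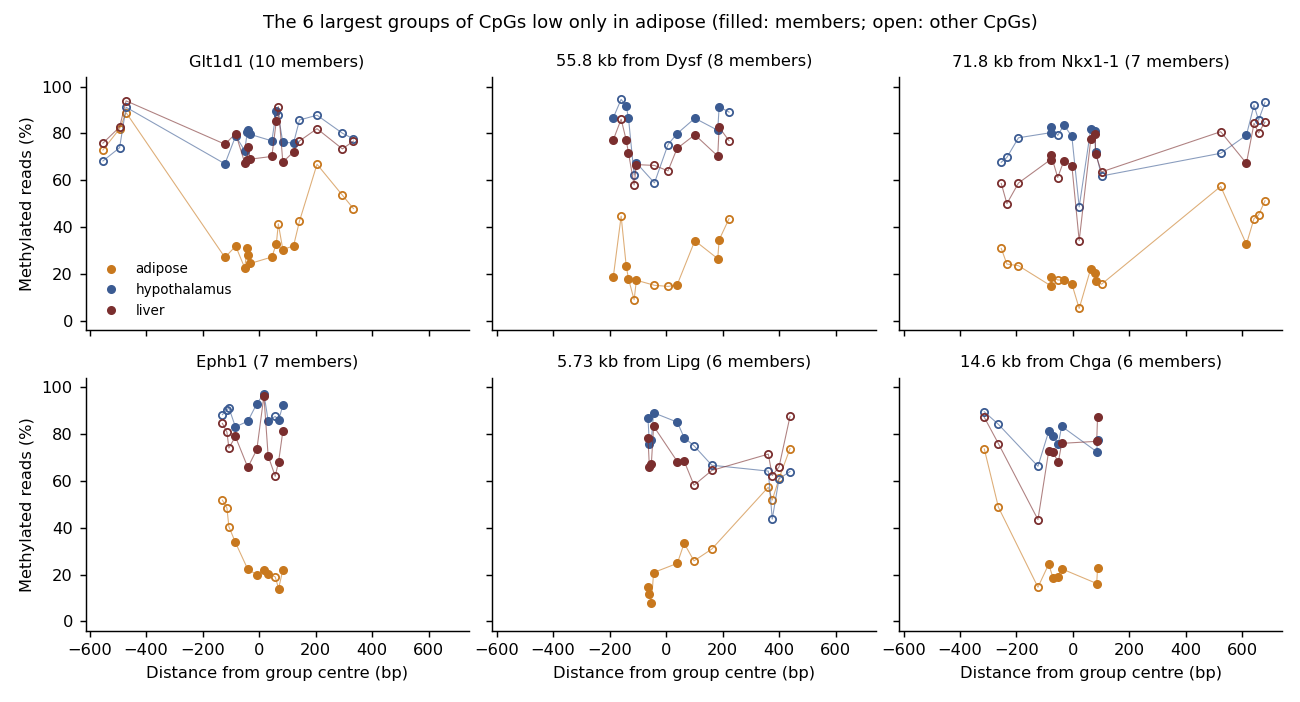
Methylation level over both pools (percent, vertical axis) at every common-set CpG within 1000 bp of the centre of 6 places with the most members (distance in bp, horizontal axis), the 2 with 6 members being those with the lowest adipose level of 8 such places. Filled points are members, open points other CpGs, and lines join CpGs of 1 tissue. A member farther out in the panel near Nkx1-1 belongs to another place. At Glt1d1 the other adipose CpGs within 300 bp lie at 41.4% to 66.8%.

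Around the members the gap between adipose and the other tissues narrowed with distance. CpGs that were not members but lay 1 to 50 bp from one (1854 sites) had a median of 35.1% in adipose, 72.9% in hypothalamus and 69.8% in liver, and adipose was the lowest tissue at 97.5% of them. Beyond 100 and up to 200 bp the medians were 42.5%, 74.6% and 73.2%, and adipose was lowest at 93.7%. Beyond 200 and up to 500 bp they were 49.4%, 75.7% and 72.7%, with adipose lowest at 78.5%. Beyond 500 and up to 1000 bp the medians were lower in all 3 tissues, at 40.4%, 57.8% and 58.7%, and adipose was lowest at 55.05%. The median difference of hypothalamus minus adipose per CpG was 36.5 points at 1 to 50 bp, 17.1 beyond 200 and up to 500 bp, and 0.861 beyond 2000 and up to 5000 bp, where adipose was lowest at 44.7%. Over the whole common set adipose was lowest at 34.3% and that median difference was 0.551 points. Near CpGs share reads with the members and were left out of them only for missing a cut-off, so these values describe reach and are not independent support.

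**Figure D3:**
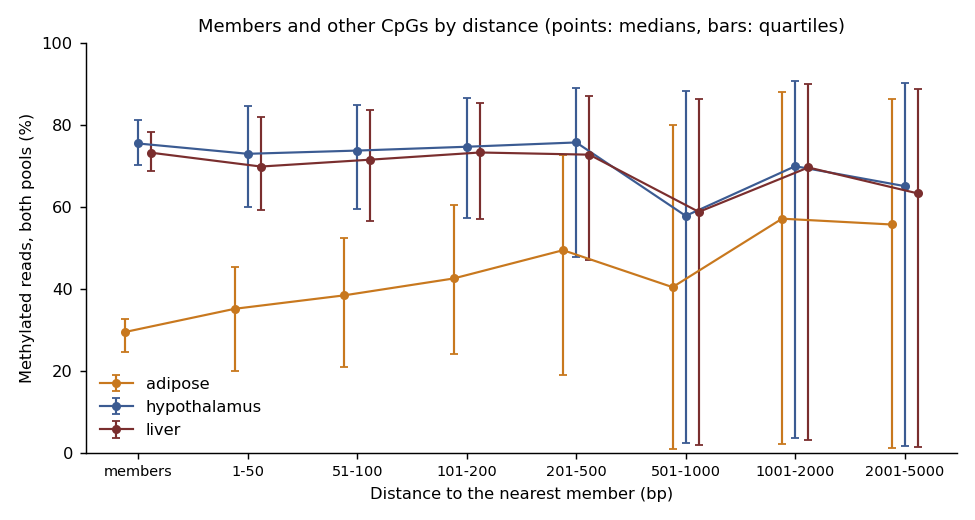
Methylation level over both pools (percent, vertical axis) of the 2102 members and of other common-set CpGs by distance to the nearest member (bp, horizontal axis, bins of unequal width). Points are medians, bars span the quartiles, and colours mark the 3 tissues. The adipose median rises from 35.1% at 1 to 50 bp to 49.4% beyond 200 and up to 500 bp, while over these distances the hypothalamus median stays between 72.9% and 75.7%.

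The RefSeq gene table used gives the extent of genes without exons, introns or UTRs. In all, 60.3% of the members lay in a gene body, 11.6% within 5 kb of a gene and 28.2% (592) farther away. For the common set these shares were 67.4%, 12.2% and 20.4%. CpGs low only in liver were in a gene body in 73.5% and CpGs low only in hypothalamus in 72.0%. Only 53 of 2051 members on chromosomes with a table of starts (2.58%) lay within 250 bp of a start, against 15.1% of the common set, 3.7% of the liver-low and 3.94% of the hypothalamus-low sites. Among common-set CpGs with at least 65% in all 3 tissues, 0.722% lay that close to a start, and among those with at most 35% in all 3 it was 35.6%.

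The members stood in CpG-poor surroundings for RRBS. Within 100 bp to either side they had a median of 2 other common-set CpGs, against 5 for the common set, 2 for the liver-low and 3 for the hypothalamus-low sites. No member had 20 or more such neighbours, while 6.19% of the common set had. By chromosome, members made up from 0.113% of the common-set CpGs on chromosome 14 to 0.229% on chromosome 8.

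At least 1 member lay in or within 5 kb of 741 of 17875 protein-coding genes with a common-set CpG (4.15%), and of 241 long noncoding RNA genes. Of the protein-coding genes, 252 had 2 or more members and 33 had 5 or more. Genes differ in how many CpGs were read, so the count of the genes described most fully is given beside the CpGs read there, and that of each list beside the CpGs of the list.

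Piezo1, the gene of a mechanically gated cation channel, had the most, 13 of 206 CpGs. They lie between 122511547 and 122549874 on chromosome 8, and 6 of them form 1 place of 197 bp. Summed over the 13, adipose had 24.4% and 22.4% in the control and BPA pools, hypothalamus 75.6% and 77.0%, and liver 76.2% and 73.3%. The other CpGs of Piezo1 had a median of 68.3% in adipose, 86.6% in hypothalamus and 84.1% in liver. The CpG at 122547436 had 10.7% (95% interval 6.99% to 15.5%) in adipose, and the pair at 122523428 and 122523430 rested on at most 24 adipose reads per pool.

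Tshz2, a teashirt zinc finger gene on chromosome 2, had 9 members of 392 CpGs, 5 of them in its body, with 27.3% and 28.1% in adipose against 75.9% and 79.7% in hypothalamus and 76.0% and 74.8% in liver. Septin9, a cytoskeletal GTPase, had 6 of 422 with 25.1% and 30.1% in adipose. Smg6, an endonuclease of nonsense-mediated decay, had 6 of 103 with 33.2% and 22.8%. Zfhx3, a homeobox transcription factor, had 6 of 748, all within 108860343 to 108860480 on chromosome 8, with 31.8% and 30% in adipose and 82.3% and 79.9% in liver. Myrfl, a relative of myelin regulatory factor, had 6 of 47 at 27.5% and 29.6%, beside a median of 81.5% at its other CpGs in adipose.

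Some members lay at genes whose other common-set CpGs had low medians in every tissue. These medians cover the whole gene and not the CpGs next to the members. At Sh3d21, 7 of 39 CpGs were members with 25.6% and 26.2% in adipose, while its other CpGs had medians of 0.989%, 1.31% and 1.27% in adipose, hypothalamus and liver. Ccdc71 had 5 of 60 with 14.6% and 16.8% in adipose against 75% and 69.6% in hypothalamus and 73.5% and 64% in liver, and its other CpGs had medians of at most 1.37%. Kcng3, a modifier subunit of voltage-gated potassium channels, had 5 of 110 at 19.6% and 21.4%, with medians of at most 3.48% elsewhere in the gene. Smtnl2, a smoothelin-like gene, had 5 of 92 at 20.6% and 26.7%, and 4 of the 5 lie outside its body.

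Cldn15, a tight-junction claudin, differed from these in having few CpGs read, 11, of which 5 within 89 bp were members. Its 5 sites had 19% and 23% in adipose against 93.2% and 78.3% in hypothalamus and 81.8% and 80.3% in liver. The other 6 had medians of 17.0%, 66.2% and 45.3%, so adipose was lowest there too. Grik3, a kainate receptor subunit, had 5 of 390 at 23.0% and 23.1% in adipose and 88.1% and 89.3% in hypothalamus. Myo18b, a myosin of striated muscle, had 5 of 157 at 25.9% and 22.9%, and Rasa3, a Ras GTPase-activating protein, 5 of 158 at 18.9% and 21.3%. Pear1, a receptor of platelets and endothelium, had 5 of 76 at 24.4% and 22.5%.

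Among genes of the extracellular matrix, 6 of 44 with a common-set CpG had a member, 17 of 3473 CpGs (0.489%, against 0.165% of the common set). Col4a2, a chain of basement membrane collagen, had 6 of 150, with 22.1% and 18.9% in adipose against 74.2% and 69.2% in hypothalamus and 68.9% and 69.6% in liver. 1 of them, at 11393316 on chromosome 8, had 7.58% of its adipose reads methylated (5.69% to 9.84%), against 73.2% and 67.7%. Sparc, a matrix protein of mesenchymal cells, had 3 of 27 at 34.8% and 27.3%, and Col18a1, the source of endostatin, 3 of 197 at 27.9% and 33.8%. Tnxb and Nid2 had 2 members each and Fbln2 1. Hspg2, which encodes the basement membrane proteoglycan perlecan and was not on that list, had 11 of 390. Its adipose levels were 27.9% and 25.5%, against 78.9% and 81.2% in hypothalamus and 72.7% and 69.1% in liver.

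The mural and smooth muscle list had a member at 4 of 14 genes (28.6%) and at 12 of 773 CpGs (1.55%), the highest share of CpGs among the 17 lists. Lmod1, which nucleates actin in smooth muscle, had 4 of 43 within 92 bp, with 24.1% and 33.7% in adipose against 70.5% and 66.7% in hypothalamus and 80.1% and 78.8% in liver. Synpo2, an actin-binding protein of muscle, had 4 of 106 at 31.6% and 32.3%. Cspg4, the NG2 proteoglycan of pericytes, had 2, as had Des. Lists are small, their genes carry unequal numbers of CpGs, and neighbouring sites such as those of Lmod1 or Des can share reads. These shares are therefore a description.

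Endothelial markers had a member at 6 of 26 genes (23.1%) and at 10 of 1741 CpGs (0.574%). Flt1, a receptor of vascular endothelial growth factor, had 3 beyond 1 end of its body at 147559553 to 147559682 on chromosome 5. Summed, they had 26.2% and 30.5% in adipose against 73.1% and 77.3% in hypothalamus and 71.5% and 72.6% in liver. Erg, an ETS transcription factor of endothelium, had 2 of 152 at 35.1% and 32.0%. Tie1 had the 2 promoter sites printed above, and Pecam1, Plvap and Mmrn2 had 1 each.

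Genes of TGF-beta and BMP signalling had a member at 6 of 32 (18.8%) and at 18 of 3078 CpGs (0.585%). The coreceptor gene Eng had 4 of 68 with 23.9% and 24.4% in adipose against 75.4% and 70.1% in hypothalamus and 71.5% and 65.8% in liver. The inhibitory Smad6 had 4 of 312 at 28.7% and 22.6%, beside a median of 1.15% at its other CpGs in adipose. Smad3, which carries the TGF-beta signal to the nucleus, had 3 of 222 at 26.0% and 26.7%. Ski and Tgfbr2 had 3 each and Acvr1b 1.

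Of 29 genes of adipocyte identity and lipid storage, 3 had a member (10.3%), with 4 of 1126 CpGs (0.355%). Lep, which encodes the hormone leptin, had 2 of 29 CpGs, at 29065540 and 29065556 on chromosome 6. They had 23.8% and 33.0% in adipose against 85.6% and 68.4% in hypothalamus and 75.4% and 72.3% in liver. Mgll, monoacylglycerol lipase, had 1 of 152 at 30.2% and 32.7%, and Cidea, a lipid droplet protein, 1 of 55 at 26.6% and 36.7%. The other 26 genes of the list with a common-set CpG had no member.

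Of 28 regulators of adipogenesis, 3 had a member, with 13 of 4815 CpGs (0.270%). Prdm16, a determinant of brown fat, had 8 of 653 CpGs between 154346803 and 154581244 on chromosome 4. They had 27.9% and 31.0% in adipose against 78.6% and 72.6% in hypothalamus and 73.9% and 71.8% in liver. Gata3, which restrains adipocyte formation, had 3 of 221 within 32 bp at 29.4% and 28.1%, and Ebf3, a helix-loop-helix transcription factor, had 2 of 395 at 31.1% and 27.9%. Insulin and IGF signalling had a member at 4 of 26 genes and at 8 of 2615 CpGs (0.306%), and Igfbp7, a secreted binding protein, had 5 of 54 at 29.5% and 27.6% in adipose and 83.5% and 83.1% in hypothalamus. Igf1r and Akt1 had 1 each.

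Nuclear receptors had a member at 3 of 33 genes and at 6 of 3736 CpGs (0.161%), with 4 of the 6 at Nr4a1, an immediate early gene, where adipose had 26.8% and 20.2%. Rorb and Nr5a1 had 1 each. Mesenchymal transcription factors had a member at 4 of 38 genes (Gata4, Heyl, Twist2 and Snai1) and at 4 of 4384 CpGs (0.0912%, against 0.165% of the common set). Of these, Gata4 had 17.0% and 19.8% in adipose against 81.5% and 87.8% in hypothalamus. Hox and TALE homeobox genes had 2 of 3455 CpGs (0.0579%), at 1 of 44 genes. Stromal progenitor markers had 1 of 684 CpGs (0.146%), at Gsn, 1 of 16 genes. Leukocyte markers had 2 of 724 CpGs (0.276%), at the B cell genes Cd79a and Cd79b, among 26 genes.

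Other lists covered cell types of the other tissues, of tissue beside gonadal fat and of its mesothelial cover. Hepatocyte markers had 0 of 257 CpGs at 17 genes. Epididymis and testis markers had 0 of 172 CpGs at 9 genes, and mesothelial markers 0 of 298 at 8. Neuron markers had 1 of 1459 at Rbfox3 and glial markers 1 of 699 at Aldh1l1. The share over the common set was 0.165%, so lists this small can hold few members or none at that share. As a check of the tissue labels, the median common-set level in the gene body was compared. It was lowest in adipose for 19 of 28 adipocyte markers and in liver for 12 of 14 hepatocyte markers. Over the adipocyte list, though, the median of these gene levels was 53.3% in adipose and 45.3% in liver. For neuron markers the gene level was lowest in hypothalamus for 7 of 16. Their list medians were low in all tissues, at 3.88%, 2.45% and 4.19% in adipose, hypothalamus and liver. The gene level was lowest in adipose for 15 of 26 endothelial, 7 of 14 mural and 8 of 20 leukocyte markers. In liver it was lowest for 9, 5 and 8 of them. The part of each cell type in the low adipose levels was not tested.

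**Figure D4:**
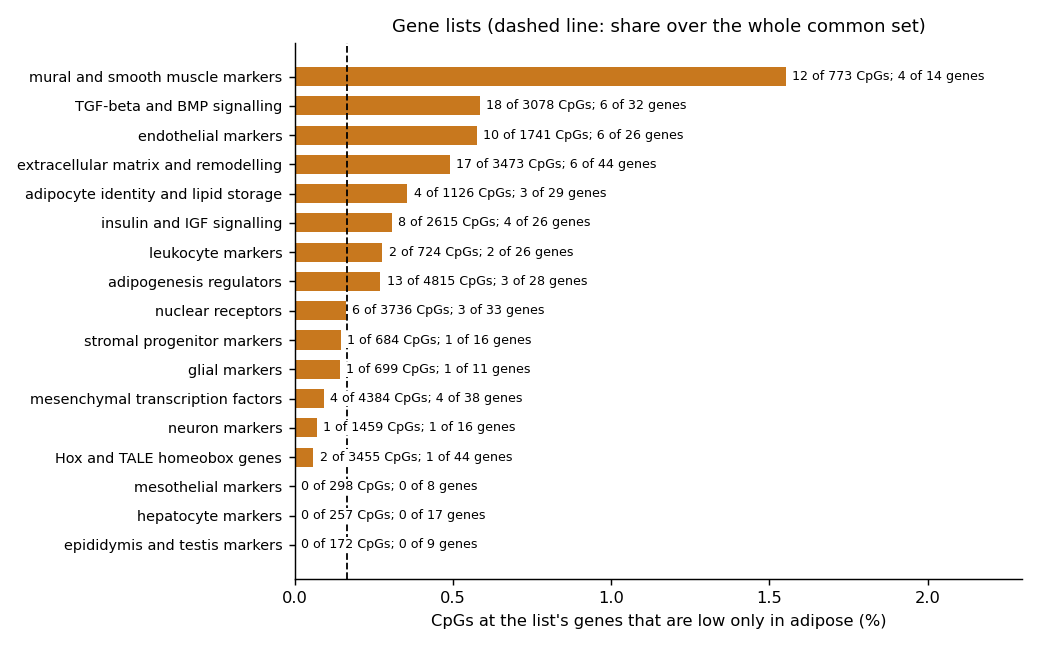
Share of the common-set CpGs at the genes of each list that were low only in adipose (percent, horizontal axis), with CpG and gene counts printed at the bars. The dashed line marks the share over the whole common set, 0.165%. The mural and smooth muscle list reaches 1.55%. The mesothelial, hepatocyte, and epididymis and testis lists have none among 298, 257 and 172 CpGs, so few that the whole-set share also allows none.

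The rule joined the 2 pools of a tissue, so the difference between them was not used in choosing the sites and could be tested. The test was the deposited Fisher's exact p on pooled reads (two-sided), Benjamini-Hochberg adjusted over all tested sites of the tissue, and calls needed an adjusted p under 0.05 and 5 points or more between the pools. It compares 2 pools of reads and not animals. In adipose 38 of the 2102 members were called (1.81%), at 34 places, against 0.535% of all tested CpGs. In the BPA pool 12 of them were higher (background 0.252%) and 26 lower (background 0.283%). The share of called sites varies with the level, so the members of the middle range were set beside other sites at that level. Between 24.6% and 32.6% in adipose, 2.38% of the 1050 members and 1.54% of all 19953 common-set CpGs were called. This range was matched for adipose level but not for read depth, and sites of 1 place share reads. The squared difference between adipose pools was 2.02 times what counting error gives across sites, and with p-values scaled by that factor no member was called, with a background of 0.00149%.

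Without a threshold, 399 members (19%) had an unadjusted p under 0.05 in adipose, against 10.1% of all tested sites. These shares were not matched for level or read depth. The median difference of BPA minus control was -0.9 points, with 1176 members lower and 914 higher, and 0 over all tested sites. At the middle range of levels the BPA pool was lower at 55.5% of members and at 53.1% of all common-set CpGs.

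The smallest adjusted p was at position 60744230 of chromosome 9, more than 5 kb from any gene, where the control pool had 27.5% methylated of 593 reads and the BPA pool 13.7% of 672. The difference was -13.8 points (95% Newcombe interval -18.2 to -9.36, adjusted Fisher exact p = 9.84e-06). At position 30883583 of chromosome 17 it fell from 33.8% of 302 reads to 16.9% of 384 (adjusted Fisher exact p = 0.00125). Both sites differed by at most 1.1 points between the pools of hypothalamus and of liver.

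Lmod1 had the called member with the smallest adjusted p among those higher in the BPA pool. At 135367138 on chromosome 1 it had 14.3% of 217 reads and 34.0% of 244, a difference of 19.7 points (12.0 to 27.1, adjusted Fisher exact p = 0.00211). The other 3 Lmod1 members of this place, which spans 92 bp, had 29.5% and 33.5%, 31.5% and 36.2%, and 21.1% and 30.6%, and none was called. Smtnl2 had 21.0% of 272 and 35.6% of 323 at 72413294 on chromosome 11 (adjusted Fisher exact p = 0.0289). A site near the forkhead gene Foxs1 had 21.1% of 336 and 34.1% of 399 (adjusted Fisher exact p = 0.0311). In Wwc2 the values were 19.1% of 110 and 43.2% of 125 (adjusted Fisher exact p = 0.0271), and at 51012587 in Gm46959 22.3% of 139 and 46.6% of 118 (adjusted Fisher exact p = 0.0235). The Wwc2 site also differed by 18.6 points in liver and by -8.3 in hypothalamus, on at most 48 reads per pool, and neither was called.

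Lower in the BPA pool was the outermost CpG of the Glt1d1 place, 127691711, with 41.1% of 112 reads and 14.4% of 125 (adjusted Fisher exact p = 0.00536). The 9 other members there had differences between -15.7 and 9.4 points and none was called. At 127691711 the liver pools differed by -14.3 points and the hypothalamus pools by 5.8, and neither was called. The difference between the adipose pools was widest at position 107713841 of chromosome 12, from 60% to 17.6%, on 35 and 74 reads (adjusted Fisher exact p = 0.0116). In Akt1, a kinase of insulin signalling, the site fell from 43.4% of 166 to 21.9% (adjusted Fisher exact p = 0.0115), and in Csrp1, a LIM protein of smooth muscle, from 40.6% of 298 to 23.9% of 322 (adjusted Fisher exact p = 0.0089). Smg6 fell at 75153048 from 37.3% of 83 to 12.6% of 119 (adjusted Fisher exact p = 0.0243), and Wwox at 114468439 from 44.4% of 153 to 23.1% of 156 (adjusted Fisher exact p = 0.0312).

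At 3 places more than 1 member was called, always in the same direction, and the sites share reads. Near the noncoding Gm5356, 141379 bp from Sall1, 3 CpGs fell, from 39.8% to 23.7% at 89185594, from 37.4% to 23.8% at 89185547 and from 35.4% to 23.4% at 89185590. In Gm39663 on chromosome 1, 2 neighbouring CpGs fell from 30.3% and 27.0% to 15.9% and 14.9%. At 52753832 and 52753853 on chromosome 18, values of 36.4% and 34.7% fell to 22.3% and 21.9%. The 3 Gm5356 sites, in the order given, differed by -14.4, -13.9 and -11.9 points in hypothalamus, where none was called. In liver they differed by 0.3, -4.4 and -3.7 points. At the Gm39663 and chromosome 18 sites the differences in these 2 tissues lay between -8.2 and 3.5 points.

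**Figure D5:**
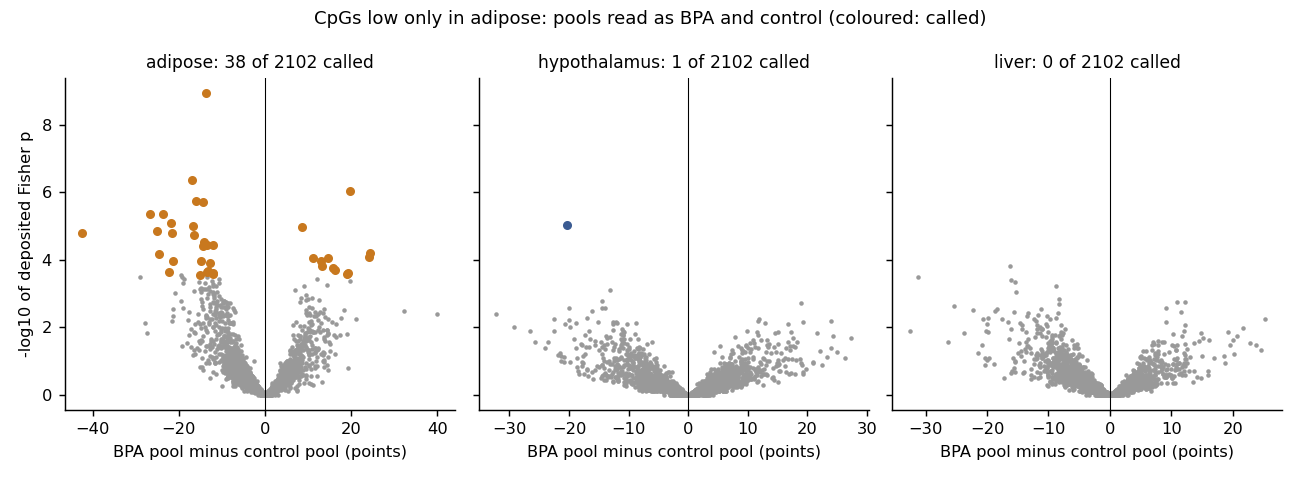
Difference between the pools read as BPA and control (percentage points, horizontal axis) against −log10 of the deposited Fisher p (vertical axis) for the 2102 CpGs in each tissue. Coloured points were called and grey points were not. In adipose 38 are coloured, 26 of them to the left of 0, in hypothalamus 1 and in liver none.

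In hypothalamus 1 of the 2102 members was called, against 0.00599% of all tested sites. It lies at 31427678 on chromosome 9 in Tmem45b, a transmembrane protein gene, where the control pool had 80.6% and the BPA pool 60.3% of 194 reads methylated (adjusted Fisher exact p = 0.0464). The call was lost with scaled p-values and without the deepest 0.1% of sites. The median difference over the members was -0.45 points. In liver the same Fisher test called 0 members, against 0.0259% of all tested sites, with a smallest adjusted p of 0.204. There 148 members (7.04%) had an unadjusted p under 0.05, against 4.21% of all tested sites, which were not matched for level or read depth. The authors' deposited credible difference was 5 points or more at 40 members, and at 0.995% of all tested sites, again not matched. The median difference in liver was -1.3 points, with 1230 members lower in the BPA pool (58.5%). At the middle range of these liver levels the BPA pool was lower at 59.2% of members and at 50.7% of all common-set CpGs.

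The pool difference in adipose was set against that in each other tissue with a Wald test on log odds ratios, adjusted over the common set. Against hypothalamus it called 0 members (background 0.0338%), with a smallest adjusted p of 0.0901 and 227 members at an unadjusted p under 0.05. The authors' deposited credible difference has no such comparison between tissues. Against liver the Wald test called 2 members (background 0.0707%), in Gm39663 and Gm572, and 266 had an unadjusted p under 0.05. That a site was called in adipose and not in another tissue is therefore not shown to be a difference between the tissues for the others. The share of the common set at an unadjusted p under 0.05 was not taken, so the 227 and 266 members have no background here.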

How the data were processed

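DNA methylation was measured by RRBS in 18 samples of 6 groups. Per the submitters' processing notes reads were aligned with BSMAP to GRCm38 (mm10), its version is not stated in the sources used here. According to the table headers (per the file headers), the deposited tables give for each CpG and pool the count of covering reads and the methylated fraction, which the authors rounded to 3 significant digits. They also hold a deposited p-value of Fisher's exact test between pools, and the authors' nominal and credible differences. As a pool merges all samples of a group, the planned logistic test over samples could not be used, and the deposited p was taken as the design foresaw for that case.

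From these values the level of a tissue was computed as the read-weighted mean of both pools, with exact Clopper-Pearson intervals at 95% (scipy 1.17.1, pandas 2.3.3, numpy 2.4.6, Python 3.11.15). Fisher p-values were adjusted after Benjamini and Hochberg over the nuclear CpGs with at least 10 reads in each pool. Recomputing p from counts and fractions for 5000 sites per table gave the deposited value within rounding in 99.8% (adipose), 99.9% (hypothalamus) and 99.7% (liver). Differences between tissues were tested by a Wald test of log odds ratios with 0.5 added to each cell. The calculations were tested on simulated data. CpGs on the same read are linked, and no test measures the spread between animals. Summed coverage per pool ran from 213672622 reads in the hypothalamus control pool to 409016549 in the adipose BPA pool, a read being counted at each CpG it covers.

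Genes came from a RefSeq table of GRCm38.p6 with 49939 genes used, and all 436 entries of the 17 gene lists matched. Sites were assigned to genes whose body holds them, or otherwise to genes within 5 kb. The chosen CpGs, gene lists and tests were selected with earlier results of these data known. Named genes follow a rule: the 20 protein-coding genes with the most members, up to 3 genes of each list, up to 10 called in adipose and 5 in another tissue by the size of the difference, the 5 places with the most members, the 5 widest gaps, and the sites nearest the cut-offs. Lists with few genes are counted in full. Some genes within the rule are not reported here. Other genes and places (Fes, Gm36301, Mir26a-1 with Ctdspl, Csrp1, Foxs1, Gm39663, Gm5356, and the place near Chga among them) and the sites described within a gene were chosen after their values were seen. Alternatives tried were other read minimums, cut-offs, weightings, call rules, chaining distances and gene extents.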

Additional observations from a re-analysis of the deposited data

Results flagged for a closer look

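At 2 CpGs the difference between the BPA and control pools differed between adipose and liver in a Wald chi-square test of the log odds ratios of read counts, Benjamini-Hochberg adjusted over the common set. In Gm39663, at position 72736266 of chromosome 1, the adipose pools held 30.3% (control) and 15.9% (BPA) methylated reads and the liver pools 66.9% and 70.4% (chi-square, adjusted p = 0.0314). The neighbouring CpG at 72736269, which also fell in adipose, was not called against liver (chi-square, adjusted p = 0.301). In Gm572, at position 148675356 of chromosome 4, the adipose pools held 47.2% and 25.4% and the liver pools 71.3% and 79.3% (chi-square, adjusted p = 0.0467). The Gm572 site had 34.99% over both adipose pools, just under the cut-off. With an unweighted mean of the pools it was no member. These 2 are 0.0951% of the 2102 members, against 0.0707% of the common set called by the same test, so the count lies near the background. With p-values scaled by the excess over counting error, neither site was called between the adipose pools. The test compares pooled reads of 1 pool per group, so the spread between animals was not tested.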

How the results depend on the processing

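The number of CpGs low only in adipose followed the cut-offs. It was 110 at 25% and 75% and 5857 at 40% and 60%, against 2102, and stayed within 1.5 times of that under other read minimums, weightings or single treatments (1567 to 2387). With p-values scaled by the excess over counting error, 0 members were called in adipose and 0 in hypothalamus. Without the deepest 0.1% of sites hypothalamus also had 0. A credible difference of at least 5 points in the authors' deposited tables held for 148 members in adipose, 39 in hypothalamus and 40 in liver. Of all tested sites, not matched for level or read depth, 2.99%, 0.858% and 0.995% had one. Counts of calls in adipose lay between 35 and 45 under the other alternatives. The share in or near genes, 71.8% with 5 kb, was 66.2% with 2 kb and 87.2% with 20 kb, since wider extents take in more sites. The number of places and of list genes with a member stayed within 1.5 times under the chaining distances and gene extents tried. The scaling ended the call at all 38 adipose sites and the 1 hypothalamus site, and without the deepest sites 35 of the 38 kept it. Of 60 named genes the count of members moved for 57 at the stricter cut-offs, 33 at the looser, 20 with 50 reads and 17 in BPA pools alone, and for at most 12 under the other alternatives. Read depth limits single levels to about the intervals given. No paired analysis was possible because the deposited columns are pools without a value per sample, and leaving out a replicate could not be done for the same reason.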

Other observations

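The X chromosome was outside the rule. By the same cut-offs 13 of its 43723 CpGs with the required reads (0.0297%) were low only in adipose, against 0.165% on chromosomes 1 to 19. They lay in or within 5 kb of Cdx4, Efnb1, Gab3, Gm4995, Mamld1, Map7d3, Spin4 and Stard8.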
